A study of Homo sapiens with 6 samples.

Results

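Peroxisomes are small organelles bounded by a single membrane, and the 27 genes described here build them, supply their fatty acid enzymes or make ether lipids. The genes were chosen by name: 13 peroxins, 4 enzymes of ether lipid synthesis, 2 ABC transporters, 5 enzymes of peroxisomal beta-oxidation and 3 further enzymes of alpha-oxidation or enoyl-CoA reduction. The rule names genes and sets no limit on a measured value, and catalase is not among them. All 27 were found among the 33139 gene identifiers with at least 1 count, and all 27 were among the 16105 genes that passed the filter on low counts.

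The study asked which genes change during ferroptosis, the iron-dependent cell death that follows from lipid peroxidation. Poly(A) RNA was sequenced from U87MG, an established human glioblastoma cell line that the labels give as wild type. Control cells received vehicle (3 libraries) and treated cells received 2 µM RSL3 (3 libraries), an inhibitor of the lipid hydroperoxidase GPX4. Treatment lasted 24 h, a time taken from a figure legend and not from the labels. Both groups were the same line in the same medium with serum, and each library is a bulk measurement at 1 dose and 1 time.

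Total counts were 27813462 to 43306335 in the control libraries and 29828249 to 34196864 in the RSL3 libraries. No library stood apart in its scaling factor, which lay between 0.995 and 1.01. Mitochondrial transcripts took 0.918% to 1.26% of the control counts and 0.840% to 0.912% of the RSL3 counts. Of 5 markers of mesenchymal glioblastoma lines, 4 fell, and their summed level was 5764 to 5999 CPM (counts scaled to library size) in control and 4954 to 5176 CPM in RSL3 libraries. VIM, CD44, FN1 and S100A6 carried that sum, while NES had 120 to 202 counts a library. The astrocyte and oligodendrocyte list summed to 14.2 to 14.7 against 16.7 to 19.2 CPM, with 1 of 3 tested genes higher (MBP) and AQP4 at 0 in all libraries. The neuron list was at 30.2 to 32.6 against 33.0 to 33.7 (SYT1 higher, SNAP25 lower). The blood and immune list was at 208 to 215 against 174 to 182, nearly all of it CD74, which fell. PTPRC and HBB had 0 to 1 counts a library, and AIF1 had 0. The epithelium and endothelium list was at 2.70 to 3.47 against 1.17 to 1.99 (VWF lower). The part of these markers in the results on peroxisome genes was not tested. The measurements are of bulk RNA, so fewer cells of a kind and less of a transcript per cell cannot be told apart.

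Peroxins import folded enzymes from the cytosol through receptors that bind a targeting signal, dock at the membrane, release their cargo and are then ubiquitinated and pulled out for another round. Inside the organelle, beta-oxidation shortens very long and branched fatty acids, and GNPAT and AGPS make the ether bond that is later finished in the endoplasmic reticulum. Ether phospholipids, the plasmalogens among them, often carry polyunsaturated chains, which are the substrate of lipid peroxidation.

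In the RSL3 libraries, genes of the set differed from control by small amounts in both directions. By edgeR's quasi-likelihood test with Benjamini-Hochberg adjustment over all genes tested, 10 of the 27 genes passed an adjusted p of 0.05 (37.0%), against 25.6% of all genes. The higher share did not hold under every setting: without RSL3 replicate 1 it was 5 of 27 (18.5%) against 19.6% of all genes, and in DESeq2 with 2 surrogate variables 2 of 27 (7.41%) against 9.62%. With at least 10 counts required in every library, 10 of 27 (37.0%) passed, against 28.3% of all genes. ABCD4, AGPS, PEX14 and PEX6 rose (4 genes, 14.8%, against 12.9% of all genes), and SCP2, GNPAT, ABCD3, ACAA1, PEX2 and PEX3 fell (6 genes, 22.2%, against 12.7%). Log2 fold changes of the 27 genes, RSL3 against control, ran from -0.33 to 0.25 with a median of -0.01, and the median of all genes was -0.0044. Signs were nearly even, with 13 genes above 0 and 14 below. The 3 control and 3 RSL3 libraries did not overlap in 15 of the 27 genes (55.6%), against 38.6% of all genes, with RSL3 above in 7 and below in 8. Added together, the 27 genes gave 44415 ± 290 normalized counts (SD, n = 3) in control and 44119 ± 303 in RSL3 libraries, a difference of -0.667%. The forest plot by role sets the rises and falls beside each other.

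**Figure D1:**
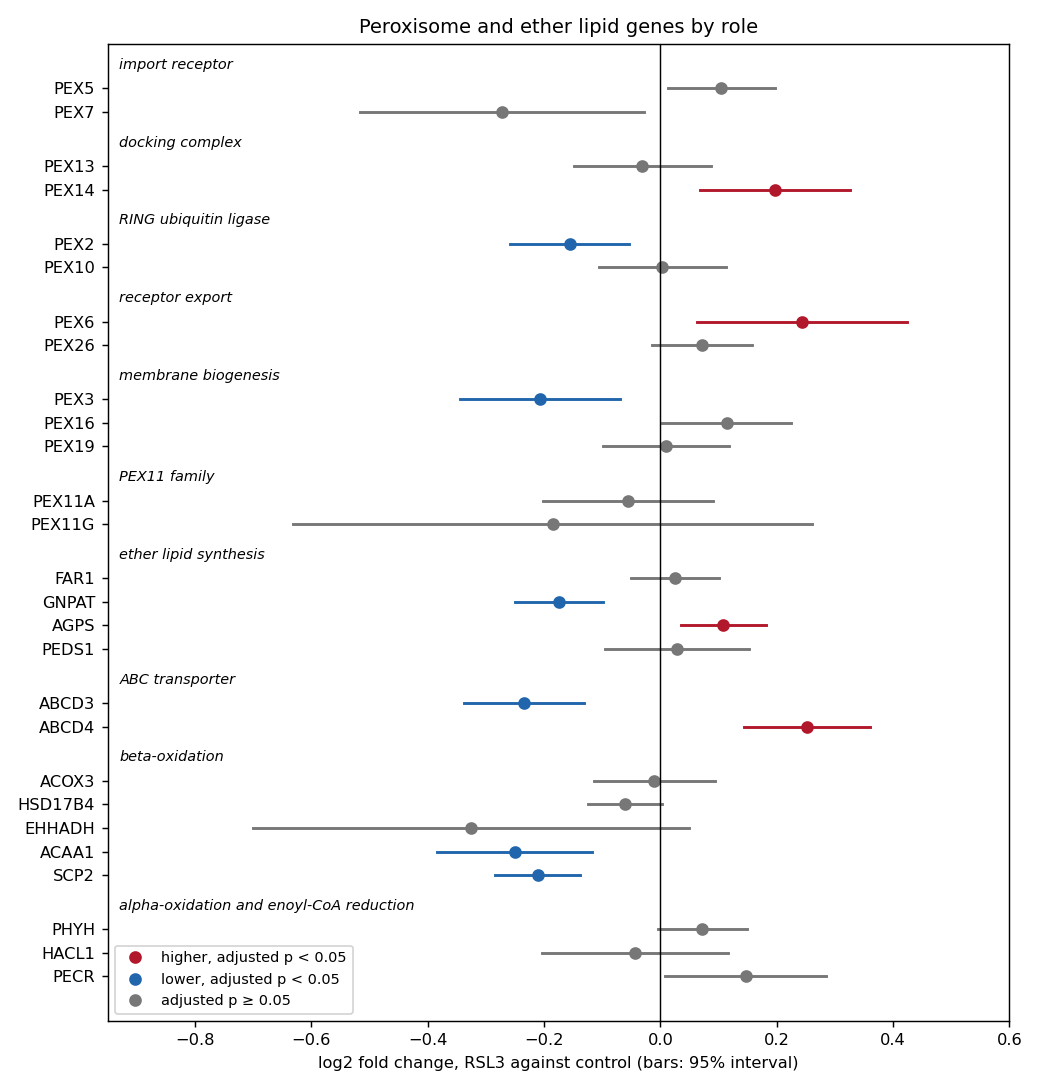
Log2 fold change (RSL3 against control) of each of the 27 genes, grouped by role, with bars for the 95% interval over 3 libraries a group. Red points are higher and blue points lower at an adjusted p under 0.05, and ether lipid synthesis and the ABC transporters each hold 1 of either colour.

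The replicates of these genes were close to each other. The median coefficient of variation was 3.71% in control and 3.86% in RSL3 libraries, against 5.85% and 5.71% over all genes tested. The sets were not matched for count: control means were 66.8 to 5963 here and 1.55 to 427106 over all genes. The part of count level in the closer replicates, and in the shares called and separated above, was not tested. Percent changes of the 10 genes that passed ran from -15.9 for ACAA1 to 19.1 for ABCD4. Beside all genes, the set lay close to the zero line at mid to high counts.

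The import receptors did not pass the test, though the libraries of both were separated. PEX5 carries cargo with a carboxy-terminal targeting signal and PEX7 carries cargo with an amino-terminal one. Normalized counts of PEX5 were 1697, 1646 and 1627 in control and 1709, 1844 and 1791 in RSL3 libraries. Its log2 difference was 0.10 (95% interval 0.01 to 0.20, adjusted p = 0.0877). Normalized counts of PEX7 were 220, 207 and 230 in control and 197, 179 and 171 in RSL3 libraries. All RSL3 values of PEX7 lay under the lowest control value, with a log2 difference of -0.27 (95% interval -0.52 to -0.03, adjusted p = 0.0971). Known cargo of PEX7 in human cells includes AGPS, ACAA1 and PHYH, whose values are given with their pathways.

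Docking of loaded receptors takes place at PEX13 and PEX14. PEX14 (ENSG00000142655, chr1:10472288-10630758) had 858, 775 and 776 normalized counts in control and 920, 961 and 889 in RSL3 libraries. Every RSL3 library was above every control library, and control replicate 1 was the nearest to them. PEX14 rose by 0.20 on the log2 scale (SE 0.06, adjusted p = 0.0224), from 803 ± 47.6 to 923 ± 35.7. The call was lost when control replicate 2 or 3 or RSL3 replicate 1 or 2 was left out, with adjusted p of 0.0680, 0.0822, 0.0538 and 0.117. PEX14 shares 7.06% of its exon bases with DFFA on the other strand, which had a log2 fold change of 0.13 (adjusted p = 0.0260), and the counting did not use strand. How these shared bases bore on the count of PEX14 was not tested. PEX13, its partner, had 1145, 1119 and 1158 against 1053, 1212 and 1085 normalized counts, groups that overlapped (log2 difference -0.03, 95% interval -0.15 to 0.09, adjusted p = 0.754).

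Receptor recycling needs a RING ubiquitin ligase, with PEX2 and PEX10 among its subunits, and an ATPase, with PEX6 as a subunit and PEX26 as its membrane anchor. Normalized counts of PEX2 were 1229, 1291 and 1278 in control and 1137, 1114 and 1155 in RSL3 libraries, with no overlap. PEX2 (ENSG00000164751) fell by 0.16 on the log2 scale (SE 0.05, adjusted p = 0.0232), a change of -10.2%. PEX10 was level between the groups, at 1306, 1207 and 1333 against 1280, 1349 and 1234, with a log2 difference of 0.00 (95% interval -0.11 to 0.11, adjusted p = 0.974). Of the exon bases of PEX10, 39.1% are shared with RER1 on the other strand, so its count is uncertain. PEX6 (ENSG00000124587, chr6:42963865-42979181) had 431, 423 and 494 normalized counts in control and 566, 483 and 550 in RSL3 libraries. RSL3 replicate 2 lay below control replicate 3, so the groups of PEX6 overlapped although the gene rose by 0.24 (SE 0.09, adjusted p = 0.0438). PEX26 had 2161, 2218 and 2035 against 2213, 2233 and 2288, with a log2 difference of 0.07 (95% interval -0.01 to 0.16, adjusted p = 0.225).

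Both calls among the recycling genes were lost in most fits with a library left out, which have fewer samples. In those fits the log2 difference of PEX2 stayed between -0.178 and -0.139, and that of PEX6 between 0.200 and 0.319. PEX2 lost its call without control replicate 2 or 3 or RSL3 replicate 1 or 2 (adjusted p of 0.0771, 0.0743, 0.0601 and 0.0954), and PEX6 lost it without control replicate 1 or 2 or RSL3 replicate 1 or 3 (adjusted p of 0.152, 0.125, 0.167 and 0.111).

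Membrane proteins of the peroxisome are inserted by PEX3, PEX16 and PEX19, the set without which no peroxisome forms. PEX3 (ENSG00000034693, chr6:143450805-143490616), the membrane receptor for PEX19, had 756, 713 and 765 normalized counts in control and 632, 674 and 632 in RSL3 libraries. The highest RSL3 value was below the lowest control value, and PEX3 fell by 0.21 on the log2 scale (SE 0.07, adjusted p = 0.0244). PEX3 passed no longer without control replicate 1 or 3 or RSL3 replicate 1 or 3, with adjusted p of 0.0764, 0.0849, 0.0816 and 0.0741. Of the exon bases of PEX3, 13.1% lie in other genes on the same strand, of which VDAC1P8 had 77 to 120 counts a library. PEX16, which brings PEX3 to the membrane, pointed the other way, at 1138, 1088 and 1044 against 1160, 1151 and 1232. That log2 difference of 0.11 did not pass (95% interval 0.00 to 0.23, adjusted p = 0.128). PEX19, the cytosolic chaperone of membrane proteins, had 1392, 1341 and 1260 against 1278, 1399 and 1341 and a log2 difference of 0.01 (95% interval -0.10 to 0.12, adjusted p = 0.929). The summed normalized count of these 3 genes was 3166 ± 111 in control and 3166 ± 83.5 in RSL3 libraries.

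Peroxisome elongation and division involve the PEX11 family. PEX11A had 669, 669 and 616 normalized counts in control and 657, 606 and 617 in RSL3 libraries (log2 difference -0.06, 95% interval -0.20 to 0.09, adjusted p = 0.629). PEX11G was among the 3 least abundant genes of the set, at 76.2, 65.2 and 59.1 against 65.5, 50.9 and 60.9. With so few counts the interval of its log2 difference of -0.19 ran from -0.63 to 0.26 (adjusted p = 0.590), so a change of the size seen in PEX3 was not detectable in PEX11G at this depth.

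In ether lipid synthesis, the 2 enzymes of the peroxisomal matrix moved in opposite directions and the other 2 genes did not pass. GNPAT (ENSG00000116906, chr1:231241207-231277973) starts the pathway by acylating dihydroxyacetone phosphate. Normalized counts of GNPAT were 2988, 2861 and 2905 in control and 2541, 2618 and 2599 in RSL3 libraries. All 3 RSL3 libraries were well below the control libraries, and GNPAT fell by 0.18 on the log2 scale (SE 0.04, adjusted p = 0.000997), from 2918 ± 64.6 to 2586 ± 39.7. AGPS (ENSG00000018510, chr2:177392746-177567024) makes the ether bond in the next step by replacing the acyl chain with a fatty alcohol. Normalized counts of AGPS were 5317, 5750 and 5747 in control and 6139, 6052 and 5919 in RSL3 libraries. The groups did not overlap, control replicate 1 was the lowest library, and AGPS rose by 0.11 (SE 0.04, adjusted p = 0.0271). The rise of AGPS did not pass without control replicate 1 (log2 difference 0.07, adjusted p = 0.158), nor without RSL3 replicate 1 or 2 (adjusted p of 0.111 and 0.0843).

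The ratio of AGPS to GNPAT counts, chosen after the values were seen and given with no test, was 1.78, 2.01 and 1.98 in control and 2.42, 2.31 and 2.28 in RSL3 libraries. FAR1, the reductase that supplies the fatty alcohol, had 4109, 4439 and 4490 against 4386, 4443 and 4428 normalized counts. Its groups overlapped, with a log2 difference of 0.03 (95% interval -0.05 to 0.10, adjusted p = 0.672). PEDS1, the desaturase that forms the vinyl ether bond of plasmalogens, had 842, 884 and 856 against 893, 829 and 908, and its log2 difference of 0.03 had a 95% interval of -0.10 to 0.15 (adjusted p = 0.788). The PEDS1-UBE2V1 readthrough gene, which shares exons with PEDS1, had 0 counts in all libraries. Summed over the 4 enzymes, normalized counts were 13729 ± 411 in control and 13919 ± 56.3 in RSL3 libraries.

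The ABC transporters also moved in opposite directions. ABCD3 (ENSG00000117528, chr1:94418389-94518666), which carries branched-chain and dicarboxylic acyl-CoA into the peroxisome, had 1226, 1293 and 1254 normalized counts in control and 1052, 1064 and 1085 in RSL3 libraries. The RSL3 values of ABCD3 lay close together and below all control values, and the gene fell by 0.23 on the log2 scale (SE 0.05, adjusted p = 0.00122). ABCD4 (ENSG00000119688, chr14:74285269-74303055) belongs to the same subfamily but is known for cobalamin export from lysosomes, so its place in a peroxisome list is by family and not by organelle. Normalized counts of ABCD4 were 1061, 1103 and 1082 in control and 1214, 1347 and 1299 in RSL3 libraries. It rose by 0.25 (SE 0.05, adjusted p = 0.000995), with every RSL3 library above every control library. The count ratio of ABCD4 to ABCD3, chosen after the values were seen and not tested, went from 0.866, 0.853 and 0.863 in control to 1.15, 1.27 and 1.20 in RSL3 libraries. Both calls held whichever library was left out, with an adjusted p of at most 0.00789 for ABCD3 and 0.0129 for ABCD4.

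Of the 5 beta-oxidation genes, 2 fell and none rose, against 12.7% of all genes lower. All 5 had a log2 difference below 0, as did 51.0% of all genes, but ACOX3 was at -0.01 and turned to 0.03 without RSL3 replicate 3. SCP2 (ENSG00000116171, chr1:52927276-53051698) encodes both a thiolase for branched chains and sterol carrier protein, and had 3436, 3411 and 3563 normalized counts in control and 2948, 2989 and 3057 in RSL3 libraries. The gap between the groups of SCP2 was wider than the range within either one, and the gene fell by 0.21 on the log2 scale (SE 0.04, adjusted p = 0.000113), the smallest p of the set. ACAA1 (ENSG00000060971, chr3:38103129-38137242), the thiolase of straight-chain oxidation, had 940, 888 and 914 normalized counts in control and 706, 784 and 816 in RSL3 libraries. ACAA1 fell by 0.25 (SE 0.06, adjusted p = 0.00551), a change of -15.9%, with RSL3 replicate 1 the lowest library. Exons of SCP2 are covered to 20.8% and those of ACAA1 to 21.2% by other genes. DLEC1 in ACAA1 had 8 to 16 counts a library, and in SCP2 RRAS2P1 had at most 3 and TUBBP10 at most 1. How the shared bases bore on the counts of SCP2 and ACAA1 was not tested.

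The other beta-oxidation genes did not pass. HSD17B4, the D-bifunctional protein for the middle steps, had 5958, 5895 and 6038 normalized counts in control and 5653, 5772 and 5727 in RSL3 libraries. Its RSL3 values were all lower, but the log2 difference was -0.06 (95% interval -0.12 to 0.00, adjusted p = 0.162). EHHADH, the L-bifunctional protein, had the lowest level of the set per exon length. Its normalized counts were 117, 86.1 and 106 against 77.0, 75.8 and 95.8, a log2 difference of -0.33. Its groups overlapped and the 95% interval ran from -0.70 to 0.05 (adjusted p = 0.208). ACOX3, the oxidase for branched chains, had 1269, 1261 and 1274 against 1306, 1280 and 1194 and a log2 difference of -0.01 (95% interval -0.11 to 0.09, adjusted p = 0.915). Summed over the 5 genes, normalized counts were 11720, 11540 and 11895 in control and 10690, 10901 and 10890 in RSL3 libraries, a difference of -7.61%. HSD17B4 and SCP2 make up most of this sum.

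None of the 3 genes of alpha-oxidation and enoyl-CoA reduction passed the test. PHYH, the hydroxylase that begins the breakdown of phytanic acid, had 2424, 2387 and 2440 against 2587, 2544 and 2497 normalized counts. The RSL3 libraries of PHYH were all above the control libraries, with a log2 difference of 0.07 (95% interval 0.00 to 0.15, adjusted p = 0.165). PECR, which reduces the double bond of enoyl-CoA, was likewise separated, at 640, 627 and 605 against 699, 679 and 696 (log2 difference 0.15, 95% interval 0.01 to 0.28, adjusted p = 0.114). PECR shares 4.29% of its exon bases with MREG, which fell by 0.37 on the log2 scale (adjusted p = 0.0371). HACL1, the lyase of alpha-oxidation, had 787, 664 and 795 against 794, 722 and 676 and a log2 difference of -0.04 (95% interval -0.20 to 0.12, adjusted p = 0.742), and 15.4% of its exon bases are shared with BTD on the other strand.

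The named cargo of PEX7 held 1 gene that rose (AGPS), 1 that fell (ACAA1) and 1 that did not pass (PHYH). By role, the 13 peroxins had 2 higher and 2 lower genes, and the 14 enzymes and transporters had 2 higher and 4 lower. Peroxins were thus called higher in 15.4% and lower in 15.4%, and enzymes and transporters higher in 14.3%, shares near the 12.9% and 12.7% of all genes. The lower enzymes and transporters came to 28.6%.

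Sequences upstream of SCP2, ABCD3, GNPAT and ABCD4 are shown because these genes had the smallest adjusted p among the 27, 3 of them lower and 1 higher. The letters are those of RefSeq's promoter table (GRCh38.p14), 5′ to 3′ on the strand of the gene. For SCP2 (chr1:52927213-52927275, plus strand) and ABCD3 (chr1:94418229-94418388, plus strand) the stretch ends just before the annotated gene start and holds no annotated exon. For GNPAT (chr1:231241172-231241201, plus strand) and ABCD4 (chr14:74303083-74303112, minus strand) it is 30 bases around 1 match, and exons of a neighbouring gene read from the other strand reach into these bases. Capitals mark the GC box (GGGCGG or its reverse complement CCGCCC) in SCP2 and ABCD3, the palindromic nuclear respiratory factor 1 motif in GNPAT and the core of the antioxidant response element (TGACNNNGC, here on the opposite strand) in ABCD4.
SCP2: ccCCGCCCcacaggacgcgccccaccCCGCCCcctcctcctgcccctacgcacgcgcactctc
ABCD3: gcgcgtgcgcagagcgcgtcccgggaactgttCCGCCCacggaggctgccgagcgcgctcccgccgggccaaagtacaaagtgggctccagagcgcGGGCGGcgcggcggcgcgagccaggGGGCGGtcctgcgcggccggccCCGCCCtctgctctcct
GNPAT: ccgcgactgcGCGCATGCGCtgcagggccc
ABCD4: cgctgtagccGCCGGGTCAgccgagtccac

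The printed stretch of SCP2 held 2 GC boxes, 61 to 32 bases before the gene start, and that of ABCD3 held 4, between 128 and 12 bases before it. In GNPAT the respiratory factor motif lay 25 to 16 bases before the start, and in ABCD4 the antioxidant response core lay 47 to 39 bases before it. Promoters of 22 of the 27 genes were matched in the table. Motifs were counted on both strands in the 250 bases before each listed start of 27305 genes, 35116 windows in all. A gene was counted if any of its windows matched. The 27305 genes were not limited to those tested here, while all 22 were tested, so the shares below do not compare like sets. The GC box was present in 18 of the 22 (81.8%), against 46.2% of all genes. These 18 include ABCD4, which rose, as well as SCP2 and ABCD3, which fell, but not GNPAT. TGACNNNGC was present in 5 of the 22, namely ABCD4, ACOX3, PEX10, PEX16 and PEX5 (22.7%), against 13.2% of all genes. Of these, ABCD4 rose, while ACOX3, PEX10, PEX16 and PEX5 did not pass. The E-box CACGTG was present in 4 (GNPAT, PECR, PEX10 and PEX11G, 18.2%), against 7.73%. The nuclear respiratory factor 1 motif was present in GNPAT alone, against 1.28% of all genes. The full direct repeat of the PPAR response element was in 0 of the 22 genes and in 0.0220% of all genes. A match is a run of letters and no measured binding site. ACAA1, EHHADH, PEDS1, PEX14 and PEX2 were not matched.

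Per exon length, levels of the 27 genes spanned 42.2-fold. GNPAT was highest at 24.8 FPKM (counts scaled to exon length and library size, mean of 6 libraries), followed by PHYH at 21.5 and FAR1 at 16.8 FPKM. SCP2, AGPS and PEX16 came next at 11.5, 11.2 and 11.03 FPKM, and each of these overlapped its neighbour in the order. PEX7 at 1.72, PEX11G at 1.25 and EHHADH at 0.587 FPKM were the only genes under 2 FPKM, and 18 genes were above 5 FPKM. Of the 26 pairs of neighbours in this order, 19 had overlapping ranges over the 6 libraries, so most ranks in the middle are not separated. Lengths are the union of all annotated exons, which for HSD17B4 is 24901 bases, and its level was 6.88 FPKM although it had the highest normalized count of the set in control libraries. The lengths include bases shared with other genes (39.1% in PEX10, 21.2% in ACAA1 and 20.8% in SCP2), whose effect on the order was not tested. On this scale ABCD3 was above ABCD4 in control (4.82 against 3.56 FPKM) and about level with it in RSL3 libraries (4.09 against 4.23 FPKM).

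A further 59 genes of the peroxisome and of ether lipid metabolism were listed by role, of which 49 passed the filter on low counts. Among these 49, 6 rose and 7 fell (13 genes, 26.5%), a share close to the 25.6% of all genes. Their median log2 fold change was -0.02. SELENOI, the ethanolamine phosphotransferase that completes ether-linked phosphatidylethanolamine, rose from 3438 ± 106 to 4349 ± 122 normalized counts, a log2 change of 0.34 (SE 0.04, adjusted p = 2.91e-07). TMEM86A, a lysoplasmalogenase, which cleaves the vinyl ether of lysoplasmalogens, rose from 97.8 ± 18.7 to 169 ± 13.9 (log2 change 0.77, SE 0.16, adjusted p = 0.000973). CHPT1, a choline phosphotransferase, rose by 0.16 with overlapping groups (adjusted p = 0.0154). These were 3 of the 8 other ether lipid genes tested, beside 12.9% of all genes higher, and with 12.7% of all genes lower, 0 of 8 lower says little.

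Of 5 transcription factors of peroxisome genes tested, 2 rose (40%, against 12.9% of all genes) and 1 fell (20%, against 12.7%). PPARA, the nuclear receptor of fatty acid oxidation genes, rose from 3146 ± 80.6 to 3687 ± 16.8 normalized counts (log2 change 0.23, SE 0.03, adjusted p = 3.40e-05). PPARG, the receptor of adipocyte genes, rose from 622 ± 5.96 to 776 ± 33.3 (0.32, SE 0.07, adjusted p = 0.000883). PPARGC1A, a coactivator of both, fell from 710 ± 22.2 to 532 ± 34.6 normalized counts (log2 change -0.42, SE 0.07, adjusted p = 0.000160). Its 3 RSL3 libraries, at 562, 540 and 494, were below its control libraries at 685, 727 and 719.

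Of 10 other fatty acid oxidation genes tested, 2 fell (20%, against 12.7% of all genes) and none rose: CRAT, the carnitine acetyltransferase, by 0.15 (adjusted p = 0.00153), and ECH1, a dienoyl-CoA isomerase, by 0.20 on the log2 scale (adjusted p = 0.00190). Of 10 matrix proteins outside oxidation tested, 2 fell (20%, against 12.7% of all genes) and 1 rose (10%, against 12.9%). NUDT12, a hydrolase of nicotinamide nucleotides, fell by 0.31 (adjusted p = 0.000549), and GSTK1, a glutathione transferase, fell by 0.14 (adjusted p = 0.00670). IDH1, the NADP-dependent isocitrate dehydrogenase, was the most abundant gene of the list at 317 FPKM in control libraries and rose by 0.08 on the log2 scale (adjusted p = 0.0334). ACBD5, the membrane protein that ties peroxisomes to the endoplasmic reticulum, fell by 0.13 (adjusted p = 0.0235). It was the only gene called of 10 for peroxisome membrane and division tested (10%, against 12.7% of all genes lower). USP30, a deubiquitinase that counters removal of peroxisomes, fell by 0.18 at the edge of the threshold (adjusted p = 0.04997). It was 1 of 2 genes of peroxisome removal tested (50%). Of 4 other peroxins tested, none passed, against 25.6% of all genes. SELENOI, TMEM86A, PPARA, PPARG, PPARGC1A, NUDT12, CRAT and ECH1 passed with each library left out. GSTK1 lost its call without RSL3 replicate 3 (adjusted p = 0.0523), and USP30 lost it whichever library was left out (adjusted p of 0.0737 to 0.133). CHPT1 lost it without control replicate 2 or 3 or RSL3 replicate 1 or 2 (0.0630, 0.0599, 0.116 and 0.0501). IDH1 lost its call without control replicate 3 or RSL3 replicate 1 or 2 (0.0690, 0.134 and 0.195), and ACBD5 without control replicate 1 or 3 or RSL3 replicate 1 or 3 (0.0568, 0.130, 0.0950 and 0.0789).

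**Figure D2:**
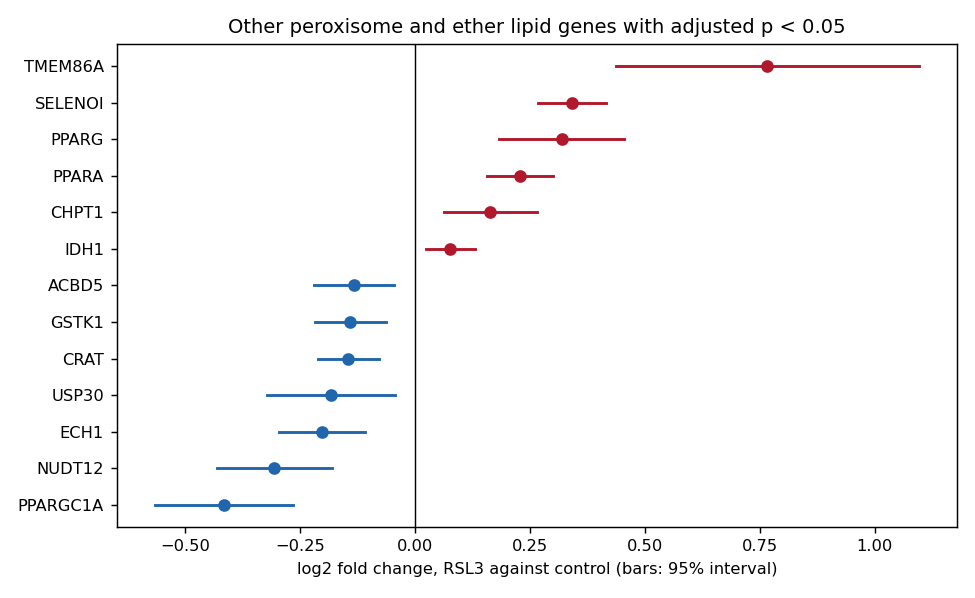
Log2 fold change (RSL3 against control) with its 95% interval for the 13 further peroxisome and ether lipid genes with an adjusted p under 0.05, 3 libraries a group. TMEM86A has the largest rise at 0.77 and PPARGC1A the largest fall at -0.42.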

How the data were processed

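U87MG cells received vehicle (3 libraries) or RSL3 (3 libraries), as the sample labels give them. Their poly(A) RNA gave paired-end reads. According to the study and the submitters' processing notes, reads were trimmed with Trimmomatic 0.36, aligned to GRCh38.p4 with HISAT2 and counted on exons per gene with HTSeq 0.6.1p1 without regard to strand. Each deposited file lists raw counts per Ensembl gene identifier, which the authors did not normalize. The annotation release used for counting is not given in the sources used here. The labels do not say whether libraries came from separate cultures, so p-values measure the spread between these libraries, which may be technical.

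The comparison used edgeR 4.0.16 under R 4.3.3: filterByExpr with a minimum count of 10, TMM scaling, the quasi-likelihood F test between all 3 control and 3 RSL3 libraries with no covariate, and Benjamini-Hochberg adjustment over the 16105 genes tested, with a threshold of 0.05. Normalized counts are scaled to the mean library size. Intervals at 95% come from the fit. Levels per length use the union of exons in GENCODE v44 (GRCh38), which also gave coordinates and shared exon bases. The fit was also run on counts simulated from its own means and dispersions with known changes. Such counts follow the model of the fit, so the run checks only that the steps work. Alternatives were DESeq2 size factors, total counts, no filter, at least 10 counts in each library, edgeR with 1 surrogate variable from sva 3.50.0, DESeq2 1.42.0 with none, 1 or 2 of them, the replicate number as a block and each library left out.

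The 27 genes and the other lists were chosen with earlier results of these data known. All 27 are named, together with the further peroxisome genes that had an adjusted p under 0.05. Markers are given by list, and other genes only where their exons overlap one of the 27. The study used DESeq2 after surrogate variable analysis with a number of variables that is not given in the sources used here, so those fits stand as alternatives. Within-group pairs of libraries differed by 2.43 to 5.58 times the chi-square expected from sampling noise, so none was counted as a repeat of another. Some genes of the wider list are withheld for evaluation and not reported here by name.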

Additional observations from a re-analysis of the deposited data

How the results depend on the processing

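Of the 10 genes that passed, SCP2 and ABCD4 passed under all 15 alternatives and GNPAT, ABCD3 and ACAA1 under 14, failing only in DESeq2 with 2 surrogate variables (adjusted p of 0.109, 0.101 and 0.336). PEX14 passed under 10, PEX2, PEX3 and AGPS under 9 and PEX6 under 6, and none of the 10 changed sign. The other 17 genes passed under none. Genes of the set called were 6 (2 higher) with DESeq2 and 1 surrogate variable and 2 (1 higher, 1 lower) with 2, where all genes called came to 1549 (763 higher, 786 lower) and other pathway genes to 6 (3 higher, 3 lower). With edgeR and 1 surrogate variable 2 of them were higher. The cause was not tested. With a library left out, and so fewer samples, genes of the set called were 5 to 8 (1 to 3 higher, 4 to 5 lower), with 5 without RSL3 replicate 1 (18.5%, against 19.6% of all genes), and other pathway genes lower were 4 to 6, with 4 without RSL3 replicate 3. USP30 passed under 1 alternative. Differences near 0 changed sign in 6 genes that did not pass: PEX13 (0.0136 with DESeq2 and 2 surrogate variables, 0.0088 without RSL3 replicate 1, -0.0934 to 0.0088 with any library left out), PEX10 (-0.0051 with total counts, -0.0319 without control replicate 2 and -0.0309 without RSL3 replicate 2, range -0.0319 to 0.0377), PEX19 (-0.0273 without control replicate 3, -0.0228 without RSL3 replicate 2, range to 0.0459), FAR1 (-0.0146 without control replicate 1, range to 0.0539), ACOX3 (0.0314 without RSL3 replicate 3, range from -0.0357) and HACL1 (0.00062 without control replicate 3, 0.0130 without RSL3 replicate 3, range from -0.114). Same-numbered libraries correlated by 0.0222, 0.0273 and 0.0745 in their deviations, and differently numbered ones by -0.0514 to 0.0242. RSL3 replicate 1 correlated slightly more with control replicate 2 (0.0242) than with control replicate 1 (0.0222). Every other library correlated best with its own number. These correlations were small, and the numbers were not taken to pair the libraries. With the replicate block the same 10 genes passed, with 12 other pathway genes and 4633 of all genes. Depth limits PEX11G, EHHADH and PEX7, with the widest intervals.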
